A study of Mus musculus with 132 samples.

Results

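P1-CTCF-KO denotes mouse embryonic stem cell (mESC) clones of the line E14-TG2a from which CRISPR-Cas9 with a pair of guides had removed, on both alleles, the CTCF binding site just upstream of the distal promoter (P1) of Runx1. CTCF is an architectural protein that halts cohesin on DNA. The deleted cells were differentiated in culture, and RNA was read at Flk1+ mesoderm (day 4) and at CD41+ haematopoietic progenitor cells (HPCs, day 7). The blood differentiation step inside these clones is described here. Its members are the 6 poly(A)-minus RNA-seq libraries whose columns carry P1-CTCF-KO and either Flk1 or CD41, of 23 libraries in the count table. There were 3 mesoderm and 3 HPC libraries, from clones E7.1, E7.2 and E9.1. E7.1 and E7.2 share a name stem, and the labels do not say whether they are fully separate lines. The same step was read in wild-type E14-TG2a cells, with 3 mesoderm libraries (B9.3, C6.1, C8.1) and 4 HPC libraries, of which B9.3 gave 2. All groups went through the same culture with BMP4, bFGF and Activin A, followed by SCF and VEGF, and each stage was sorted by flow cytometry on the protein after which it is named. The HPC gate also required cells negative for CD45, a leukocyte protein, and for Ter119, a marker of maturing red cells.

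During development, Flk1+ mesoderm that leaves the primitive streak gives rise to endothelium and blood. Runx1, a DNA-binding factor that works with its partner Cbfb, is required for definitive blood to form, and Gata1, Tal1 and Gfi1b act beside it in erythroid and megakaryocytic cells. CD41, the protein of Itga2b, is an integrin chain found on the earliest blood progenitors and on platelets. RNA without a poly(A) tail holds much unspliced, newly made RNA, and reads over introns were counted along with exons.

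The CTCF peak around the deleted site is shown first, because that deletion defines these clones. In the 416B progenitor line, the CTCF peak nearest upstream of P1 was 231 bases wide at chr16:92828270-92828500 (mm9), in intergenic sequence, with its centre 2066 bases upstream of the Runx1 start. The exact ends of the deletion were not read from the files. The forward strand of the peak is printed in lower case with the letters AGNGGGC, part of the CTCF core motif, in capitals. Either strand was searched, and 48.6% of the 1588 416B CTCF peaks on chromosome 16 held these letters in a centred window of the same length.
P1 CTCF peak: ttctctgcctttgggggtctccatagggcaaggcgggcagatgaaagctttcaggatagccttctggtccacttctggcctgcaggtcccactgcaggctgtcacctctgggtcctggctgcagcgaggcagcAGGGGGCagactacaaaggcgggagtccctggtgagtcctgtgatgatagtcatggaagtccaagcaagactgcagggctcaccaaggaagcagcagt

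Runx1 itself lies at chr16:92601710-92826319 on the minus strand. P1-CTCF-KO mesoderm held 161, 274 and 54 Runx1 counts in E7.1, E7.2 and E9.1, and HPCs held 803, 703 and 1094. As CPM, which are counts scaled to a library of one fixed size, this was 7.17 ± 3.58 (SD, n = 3) in mesoderm and 139, 63.7 and 114 in HPCs. All 3 HPC libraries lay above all 3 mesoderm libraries. The log2 fold change was 3.87 ± 0.53 (SE, adjusted p = 7.8e-05), against 3.07 ± 0.50 in the wild-type step, and the difference between the steps was 0.80 ± 0.65 (unadjusted p = 0.24). The exact two-sided permutation test of the 6 P1-CTCF-KO values gave p = 0.1, the smallest that 3 against 3 can reach. Counts per gene do not show whether the upstream site is present, so this level does not check the deletion.

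Depth limits what can be seen. Libraries held 8594364 to 10564868 counts in P1-CTCF-KO HPCs and 20024082 to 20950959 in P1-CTCF-KO mesoderm, but 94.6 to 96.6% of them fell on 150 abundant or multi-locus entries, Rn45s (the ribosomal precursor) among them. The other genes shared 308296 to 473975 counts per HPC library and 721888 to 1107044 per mesoderm library. Wild-type HPC libraries held 93.7 to 95.5% on the abundant entries, against 95.1 to 96.4% in P1-CTCF-KO HPCs. Their other genes shared 375837 to 676677 counts per library. The factors that scaled HPC library sizes were 1.124 to 1.475 in wild type and 0.6741 to 1.058 in P1-CTCF-KO. In these respects the genotypes were not matched at the HPC stage. Wild-type mesoderm held 95.3 to 98% on the abundant entries, with C6.1 at 98%. No 2 libraries of a group agreed within counting noise. Where sums over a sorted population are compared, fewer cells of a type and less RNA per cell cannot be told apart.

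The labels were compared with defining markers. Itga2b was 0.924, 0.588 and 1.53 CPM in P1-CTCF-KO mesoderm and 48.9, 17.2 and 47.8 CPM in HPCs. Kdr, which encodes the Flk1 receptor, was 26.5, 22.8 and 35.0 CPM in mesoderm and 6.90, 4.53 and 5.32 CPM in HPCs. CD41 was gated only in HPCs and Flk1 only in mesoderm. The high side of each change (log2 5.25 ± 0.52 and -2.34 ± 0.43) is therefore a check of the sort. The low side was not set by a gate. Tal1, a factor of early blood, was 2.93, 1.54 and 3.34 CPM in mesoderm and 13.5, 10.3 and 10.2 CPM in HPCs. Ptprc, which encodes CD45, had 2, 0 and 8 counts in the HPC libraries, and since the gate removed CD45+ cells this too checks the sort. Markers of endoderm and of mESCs were scarce. Afp had no counts in any P1-CTCF-KO library, Foxa2 had 1 in mesoderm, and Pou5f1 and Nanog had none in HPCs. In mesoderm Pou5f1 had 0, 5 and 0 counts and Nanog 1, 7 and 2. The endothelial marker Cdh5 was not scarce in mesoderm, with 74, 20 and 248 counts. It had 12, 14 and 1 in HPCs, and was not called.

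The step changed a large part of the transcriptome in the P1-CTCF-KO clones. Of 8139 genes tested, 2936 were called (36.1%), 1351 higher (16.6%) and 1585 lower (19.5%) in HPCs, where a call needs both an adjusted p under 0.05 and a change of more than 1 on the log2 scale. The wild-type step called 2410 (29.6%), 1082 higher (13.3%) and 1328 lower (16.3%). Agreement between the clones is given as a description, since the genes were called from these same libraries. Of the higher genes, 1333 of 1351 rose in each of E7.1, E7.2 and E9.1, and of the lower genes 1577 of 1585 fell in each. The 3 HPC libraries lay wholly above the 3 mesoderm libraries for 1309 of the higher genes, and wholly below them for 1565 of the lower genes. Over all genes tested, called or not, the libraries stood apart in this way for 25.1% above and 33% below. The share that moved the same way in each clone was not taken over all genes.

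Most of these genes were also called in the wild type. The steps shared 2073 calls, all with the same sign, which is 70.6% of the P1-CTCF-KO calls and 86% of the wild-type calls. Of the 863 genes called in P1-CTCF-KO alone, 838 had the same sign in the wild-type step. The log2 fold changes of the steps had a Pearson r of 0.94 across the 8139 genes, given as a description, since genes are not independent and each step shares its own libraries.

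**Figure D1:**
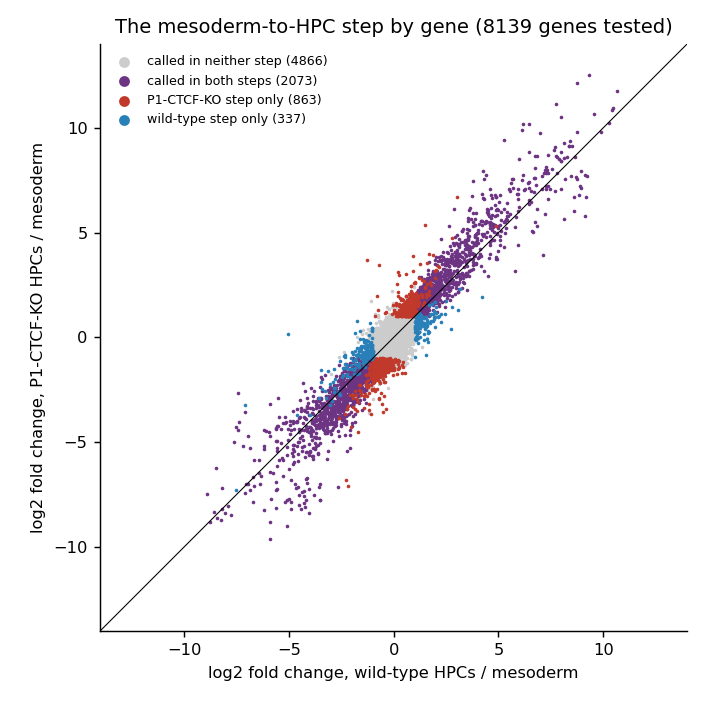
Each point is 1 of 8139 genes, with the log2 fold change of HPCs over mesoderm in wild-type libraries on the x axis and in P1-CTCF-KO libraries on the y axis, coloured by the step in which it was called, with a line of equality. The points follow the diagonal, and the 2073 genes called in both steps lie in the lower left and upper right.

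The P1-CTCF-KO step was somewhat larger over the genes as a whole, but edgeR called no single gene for that difference. The median absolute log2 fold change was 0.778 in P1-CTCF-KO and 0.613 in wild type, with median standard errors of 0.359 and 0.327. Clone by clone on log2(CPM + 1), the median absolute step was 0.596 in E7.1, 0.512 in E7.2 and 0.536 in E9.1, and 0.427 in B9.3, 0.486 in C6.1 and 0.529 in C8.1. The ranges overlapped, with C8.1 above E7.2. Steps of single clones correlated at 0.823 to 0.891 within P1-CTCF-KO and at 0.723 to 0.873 within wild type, and E7.2 correlated most highly with wild-type C8.1 (0.918).

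The test of the difference itself called 0 genes with edgeR (lowest adjusted p = 0.922). At an unadjusted p under 0.05 there were 401 genes, 4.93% of those tested. DESeq2 called 1 gene, Tlcd4, with a log2 difference of 2.83 ± 0.56 (adjusted p = 0.0037). Tlcd4 had the smallest p in edgeR as well, where its log2 difference was 2.77 (unadjusted p = 0.00014, not called). Its P1-CTCF-KO libraries held 78.5, 43.5 and 88.2 CPM in mesoderm and 420, 205 and 202 CPM in HPCs. Wild-type mesoderm held 66.5 to 162 CPM and wild-type HPCs 46.0 to 84.7 CPM, so that all 3 P1-CTCF-KO HPC libraries stood above all 4 wild-type ones. The share of counts on the abundant entries differed between these HPC libraries too. It was 96.4% in E7.1 (420 CPM) and 93.7% in wild-type B9.3 and C8.1 (46.0 and 57.1 CPM). At 95.5%, E7.2 held 205 CPM and wild-type B9.3-2 held 84.7 CPM. P1-CTCF-KO mesoderm held 43.5, 78.5 and 88.2 CPM at 94.6, 95.9 and 96.6%. Wild-type mesoderm held 66.5, 109 and 162 CPM at 95.3, 96.1 and 98%. Within each group, Tlcd4 was higher in libraries with a higher share. Whether that share bears on the difference was not tested.

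The next genes by p in either direction were not called by either tool (unadjusted p of 0.00065 to 0.0021 in edgeR). With the larger value in P1-CTCF-KO these were Gphn, which encodes the synaptic anchor gephyrin (difference 1.91), Arl15 (1.43), Wdr92 (1.73) and Lars2, a mitochondrial leucyl-tRNA synthetase (1.49). With the smaller value they were Dnttip2 (-1.79), the mitotic kinase gene Mastl (-1.37), Nuf2, a kinetochore part (-1.49), Timm44 (-1.59) and Ears2 (-3.05). Gphn and Lars2 are among the most abundant entries, with Lars2 at 9510 to 14600 CPM in P1-CTCF-KO HPCs. There Lars2 was 14600, 11500 and 9510 CPM where the abundant entries held 96.4, 95.5 and 95.1% of counts. In wild-type HPCs it was 5420, 5530, 6300 and 6120 CPM at 93.7, 93.7, 94.6 and 95.5%. Whether that share bears on the differences of these genes was not tested.

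The libraries were also placed on an axis built without them. Taking the 200 genes most clearly higher and the 200 most clearly lower over the step in P2-CTCF-KO clones, which lack the CTCF site near the other Runx1 promoter, each library was given the mean log2(CPM + 1) of the higher minus that of the lower genes. P1-CTCF-KO mesoderm scored -1.15, -1.44 and -0.878 in E7.1, E7.2 and E9.1, and HPCs 2.83, 2.59 and 2.47. Wild-type mesoderm scored -0.367, -1.55 and -1.11 in the order B9.3, C6.1, C8.1, and HPCs 2.16 to 2.67. The distance from mesoderm to HPCs was 3.78 in P1-CTCF-KO and 3.38 in wild type, and the libraries of the genotypes overlapped at each stage. B9.3 mesoderm lay nearest to the HPC end among the 6 mesoderm libraries.

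**Figure D2:**
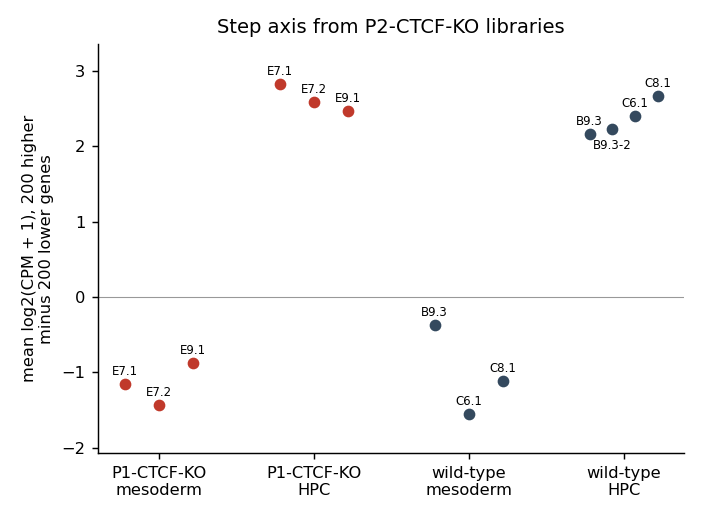
The y axis is the mean log2(CPM + 1) of 200 genes higher minus that of 200 genes lower over the step in P2-CTCF-KO clones, and each labelled point is a library of the group on the x axis. The P1-CTCF-KO HPC libraries reach 2.83, the wild-type ones 2.67, and B9.3 mesoderm stands highest of the mesoderm libraries at -0.367.

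The 12 genes that rose most clearly in P1-CTCF-KO HPCs included several known from red cells and platelets. Nmnat3, an enzyme of NAD synthesis that is abundant in red cells, had 1, 1 and 0 counts in mesoderm and 103, 186 and 143 counts in HPCs (17.8, 16.9 and 14.9 CPM), a ratio of 521 (counting interval 143 to 4320). Tspan32, a tetraspanin of blood cells, rose from 0.0513, 0.0367 and 0.117 CPM to 12.4, 11.1 and 16.1 CPM (log2 7.52 ± 0.38, adjusted p = 7.1e-08). P2rx1, the ATP-gated channel of platelets, had 1 count in each mesoderm library and 56, 65 and 101 in the HPC libraries. That the HPC libraries lay above the mesoderm libraries with no overlap was a condition for being among the 12.

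Adgrg1, an adhesion receptor of blood stem and progenitor cells, rose by 5.59 ± 0.30 on the log2 scale, from 0.257 to 0.411 CPM in mesoderm to 11.9 to 19.3 CPM in HPCs. Pip5k1b, a kinase that makes PIP2, rose by 6.07 ± 0.32, and Grap2, a leukocyte adaptor protein, by 5.57 ± 0.32. Mfsd2b, a sphingosine-1-phosphate exporter of red cells and platelets, rose by 6.15 ± 0.42, and Ache, the acetylcholinesterase found on red cells, by 6.97 ± 0.44. The other genes among the 12 were Mbp (5.41), Smox (7.56), a spermine oxidase, Traf5 (4.82) and Tbc1d8 (4.53). All 12 were called in the wild-type step as well, with log2 fold changes of 3.32 for Tbc1d8 to 7.67 for Ache.

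The 12 genes that fell most clearly included a Wnt amplifier and factors of the early embryo. Rspo3, a secreted amplifier of Wnt signalling, was 12.9, 9.44 and 7.04 CPM in mesoderm and had 0, 0 and 1 counts in HPCs, so mesoderm was higher by a ratio of 261 (counting interval 46.6 to 10300). Tbx3, a T-box factor, was 15.1, 20.5 and 9.15 CPM in mesoderm with 1, 1 and 0 counts in HPCs. Sall4, a zinc-finger factor of stem cells and the early embryo, fell from 26.9, 24.9 and 18.0 CPM to 0.173, 0.453 and 0 CPM. Prtg, protogenin, a cell-surface protein of the early embryo, fell from 49.1, 69.1 and 29.5 CPM to 0.518, 1.72 and 1.25 CPM. That the HPC libraries lay below every mesoderm library was again a condition for being among the 12.

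The other genes among the 12 were Amot (log2 -3.88 ± 0.35), a scaffold of the Hippo pathway, Ptprf (-3.46), Luzp1 (-3.75), Tmeff1 (-4.45), Greb1 (-4.56) and Greb1l (-6.13). Kdm6b, a histone demethylase, fell by 1.82 ± 0.18 on the log2 scale, from 15.7 ± 0.29 CPM (SD, n = 3) in mesoderm to 4.43 ± 0.791 CPM in HPCs. Pcdhga9 (-2.81) shares exons with its neighbours in the protocadherin cluster, so its reads are uncertain. All 12 were called lower in the wild-type step too, between -8.89 for Tbx3 and -1.67 for Kdm6b.

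**Figure D3:**
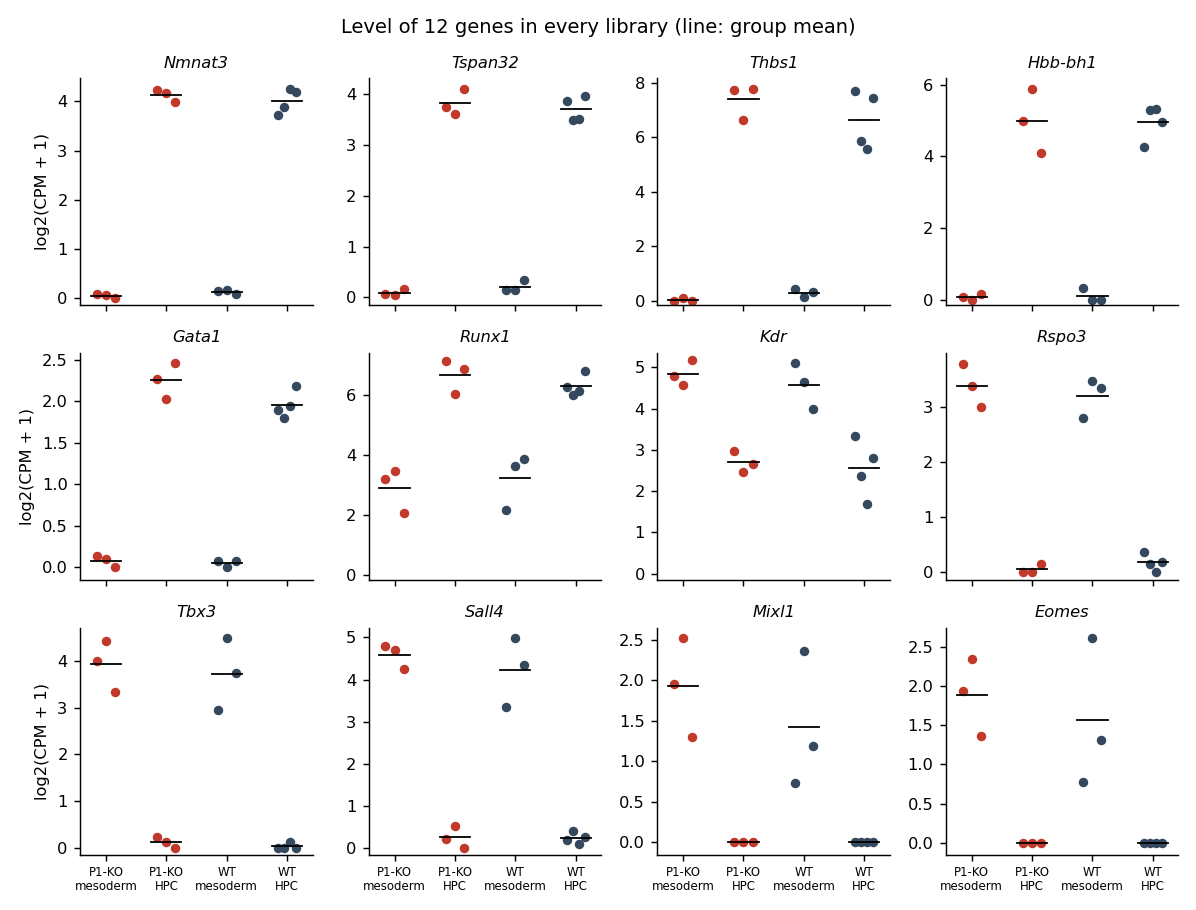
Each panel gives log2(CPM + 1) on its own linear y axis for 1 gene, with a point per library (3, 3, 3 and 4 libraries), a line at the group mean, and the 4 groups on the x axis. In P1-CTCF-KO (red) the 2 stages do not overlap in any of the 12 genes, and Mixl1 and Eomes are at 0 in all 7 HPC libraries. For Nmnat3, Tspan32, Rspo3, Tbx3 and Sall4 the lack of overlap was a condition for being named.

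Promoters of 3 of these blood genes are printed because their start sites carry different open chromatin, Tspan32 and Itga2b having an ATAC peak in HPCs alone and Runx1 P1 none in either stage. Sequences are the 250 bases before the RefSeq start, taken from the GRCm38.p6 promoter table, placed in mm9 by exact match and written on the strand of the gene. Capitals mark the letters of GATA factors (AGATAA and, as the alternative form, TGATAA), of RUNX factors (TGTGGT) and of ETS factors (AGGAAG), each searched on both strands. A match describes letters and not a bound site.
Runx1 P1, chr16:92826320-92826569, minus strand: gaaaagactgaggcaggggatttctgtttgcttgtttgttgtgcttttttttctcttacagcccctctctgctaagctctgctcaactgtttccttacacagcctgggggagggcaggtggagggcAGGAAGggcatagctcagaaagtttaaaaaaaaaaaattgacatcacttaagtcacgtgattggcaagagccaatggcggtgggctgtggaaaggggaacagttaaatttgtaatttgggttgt
Tspan32, chr7:150190701-150190950, plus strand: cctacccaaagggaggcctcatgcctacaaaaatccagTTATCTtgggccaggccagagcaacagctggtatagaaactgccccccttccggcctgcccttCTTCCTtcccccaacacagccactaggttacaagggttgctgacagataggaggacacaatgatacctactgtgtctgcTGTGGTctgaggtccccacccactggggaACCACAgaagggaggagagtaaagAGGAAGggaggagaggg
Itga2b, chr11:102331198-102331447, minus strand: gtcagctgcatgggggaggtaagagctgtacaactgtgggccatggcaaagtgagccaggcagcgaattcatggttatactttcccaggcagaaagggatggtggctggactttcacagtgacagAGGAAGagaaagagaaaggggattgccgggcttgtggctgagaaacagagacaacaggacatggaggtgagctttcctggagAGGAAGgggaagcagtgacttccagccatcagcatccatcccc

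Over the 8472 promoters of equal length matched to 6488 of the tested genes, 9.68% held a GATA motif and 11% a RUNX motif. Of the 1543 promoters of genes higher in P1-CTCF-KO HPCs, 13.2% held a GATA motif and 13.9% a RUNX motif, and of the 1600 of lower genes 9.06% and 9.44%. The ETS motif was in 35.5% and 30% of them (32.4% of all), and the E-box CAGNTG in 46.9% and 41.9% (41.8% of all). Among erythroid genes, 11 of 19 promoters held a GATA motif, and among megakaryocyte genes 6 of 21. These shares are descriptions with no test.

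Every erythroid and megakaryocytic gene that could be tested rose. All 27 erythroid genes tested, of 32 listed, were called higher, against 16.6% of all tested genes. Their median log2 fold change was 6.11, against -0.14 over all genes. The embryonic globins were read in every HPC library: Hbb-bh1 had 1, 0 and 2 counts in mesoderm and 178, 637 and 154 in HPCs, and Hbb-y had none in mesoderm and 137, 298 and 77 in HPCs, at least 412-fold higher against a floor of 3 counts over the mesoderm libraries. The adult globin gene Hbb-b1 had 3, 13 and 3 counts in HPCs, too few to test. Epb41, a skeletal protein of the red-cell membrane, rose from 9.24, 7.64 and 10.4 CPM to 148, 95.4 and 95.5 CPM (log2 3.63 ± 0.26), and Gypc, a glycophorin, rose by 4.39 ± 0.31. E7.2 was the highest HPC library for Hbb-bh1 and Hbb-y. Genes below the count minimum of the filter were not tested, and a gene that passed it through its high group had to differ, so these counts describe the lists.

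Of 27 megakaryocyte and platelet genes listed, 26 were tested and all were higher, against 16.6% of all tested genes. Their median was 7.85 in P1-CTCF-KO and 6.71 in wild type. As above, a gene that passed the filter only through HPCs had to rise. Thbs1, thrombospondin of platelet granules, had 0, 2 and 0 counts in mesoderm and reached 213, 98.2 and 216 CPM in HPCs, the most abundant transcript of the list. Itgb3, the partner chain of CD41, rose from 0.154, 0.294 and 0.411 CPM to 140, 57.2 and 142 CPM (log2 8.60 ± 0.69). Plek, pleckstrin, rose to 93.0, 51.7 and 99.8 CPM from 3 counts in all mesoderm libraries, and Fermt3, kindlin-3, rose by 5.22 ± 0.41. Here E7.2 was the lowest HPC library for Thbs1, Itgb3, Plek and Itga2b, and the summed level of the list ran from 397 to 907 CPM in P1-CTCF-KO HPCs and from 260 to 693 CPM in wild-type HPCs.

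Among haematopoietic regulators, 17 of 34 listed were higher, 4 were lower, 8 were tested and not called, and 5 were under the filter. Of all tested genes 16.6% were higher and 19.5% lower. Gata1, the erythroid and megakaryocytic master factor, had 2, 2 and 0 counts in mesoderm and 22, 34 and 43 in HPCs (log2 5.74 ± 0.45). Nfe2, a factor of platelet formation, rose by 5.72 ± 0.56, Gfi1b, a repressor needed in the same lineages, by 5.35 ± 0.62, and Cbfa2t3, a corepressor bound by Tal1, by 3.23 ± 0.24. Ikzf2 rose by 2.43 ± 0.23, Ikzf1 by 3.20 ± 0.61, Etv6 by 1.75 ± 0.42 and Meis1 by 4.43 ± 0.90, from 0.478 to 3.87 CPM in mesoderm to 33.6 to 66.5 CPM in HPCs. Cbfb, the partner of Runx1, fell by 1.56 ± 0.35 and Tcf3 by 1.23 ± 0.28. Gata3 fell by 4.28 ± 0.83, and Mecom, a factor of stem cells, fell by 3.78 ± 1.19, with 2.20 to 14.8 CPM in mesoderm. Erg was 2.51, 0.404 and 4.28 CPM in mesoderm and 0.345, 1.09 and 0.313 CPM in HPCs, which overlapped and was not called (adjusted p = 0.17). Spi1, Gfi1 and Hlf were under the filter.

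Most leukocyte genes were too scarce to test. Of 42 listed, 12 passed the filter and 11 were called higher, against 16.6% of all tested genes. Among the 11 were Itgb2 (log2 7.56 ± 0.52), Alox5 (6.46 ± 0.58), Vav1 (5.79 ± 0.69) and Laptm5 (4.70 ± 0.71). Genes that passed the filter only through HPCs had to rise, so this count describes the list. Itgb2, the common chain of leukocyte integrins, had 1 count in mesoderm and 28, 44 and 47 in HPCs. The granule enzyme genes Elane, Ctsg and Prtn3 had no counts in the P1-CTCF-KO HPC libraries. A count of 0 at this depth limits the level and does not show absence. Of the cytokine pathway list of 34, 18 were tested, 6 higher and 4 lower, against 16.6% and 19.5% of all tested genes. Epor, the erythropoietin receptor gene, and the kinase gene Jak2 (2.61 ± 0.27) were among the higher ones, and Il6st (-2.31 ± 0.27), Pdgfra, Pdgfrb (-2.75 ± 0.84) and Kitl (-3.53 ± 1.20) were lower. Kit, the SCF receptor, was 9.70, 3.71 and 12.5 CPM in mesoderm and 2.24, 4.99 and 3.65 CPM in HPCs and was not called.

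**Figure D4:**
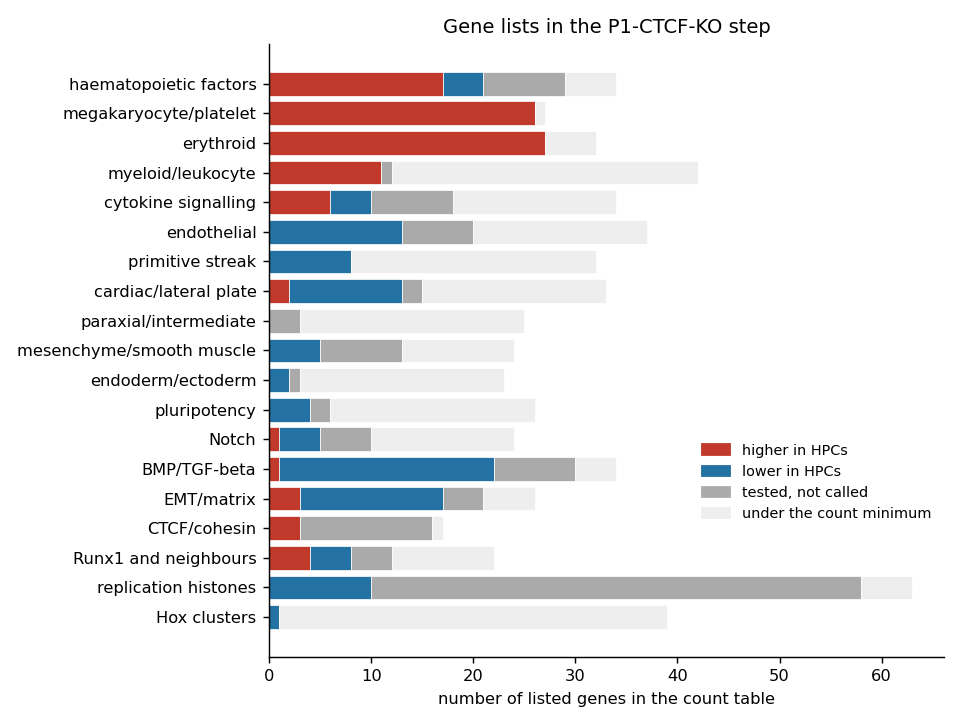
Each bar is a gene list, its length the number of listed genes in the count table, split into genes higher in P1-CTCF-KO HPCs (red), lower (blue), tested and not called (grey) and under the count minimum (pale). The erythroid and megakaryocyte lists are almost wholly red, 27 of 32 and 26 of 27, and the BMP/TGF-beta list largely blue, 21 of 34.

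Primitive streak genes fell over the step. All 8 that were tested of 32 listed fell, against 19.5% of all tested genes. Their median was -7.63 in P1-CTCF-KO and -6.92 in wild type. In P1-CTCF-KO HPCs the whole list summed to 0.345 to 0.725 CPM. A gene that passed the filter only through mesoderm had to fall, so this count describes the list. Mixl1, a homeobox factor of the streak, was 2.87, 4.74 and 1.47 CPM in mesoderm and had no counts in HPCs, at least 29.0-fold lower. Eomes, a T-box factor that opens the mesoderm programme, was 2.82, 4.08 and 1.58 CPM in mesoderm and 0 in HPCs, at least 26.7-fold lower. The Wnt target Axin2 had 123, 281 and 53 counts in mesoderm and 1, 0 and 1 in HPCs. T, brachyury, had 4, 34 and 6 counts in mesoderm and none in HPCs, below the filter. E7.2 mesoderm had the highest and E9.1 the lowest level of Mixl1, Eomes and Axin2.

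Lateral plate and cardiac genes followed. Of 33 listed, 15 were tested, 11 fell and 2 rose, against 19.5% lower and 16.6% higher of all tested genes. Among the 11 were Gata4 (log2 -5.88 ± 1.01), the ligand gene Bmp2 (-2.95 ± 0.46) and Bmp5 (-5.40 ± 0.99). The 2 that rose were Mef2c (3.41 ± 1.04), a factor also used in megakaryocytes, and Tnnt2, cardiac troponin T, which had 2, 1 and 1 counts in mesoderm and 9, 1 and 17 in HPCs, with overlapping CPM. Of the paraxial list 3 of 25 were tested and 0 called by edgeR or DESeq2, with 1 (Twist2) at an unadjusted p under 0.05 in edgeR. Their median was -2.60, 2 of the 3 were called lower in the wild-type step, and 1 was called lower in P1-CTCF-KO with the clone as a block or with each genotype fitted alone, and 1 or 2 with a P1-CTCF-KO library left out, E9.1 mesoderm excepted. Of 39 Hox genes, 38 were under the filter. Hoxd3, the exception, had 43, 29 and 46 counts in mesoderm and 0, 1 and 0 in HPCs.

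Endothelial genes are set beside all tested genes, of which 19.5% were lower and 16.6% higher. Of 37 endothelial genes listed, 20 were tested, 13 were lower, 7 were not called, and 0 were higher. Without E7.1 HPCs or without E7.2 HPCs 1 was higher, and without E7.2 HPCs 8 were lower. The 13 lower ones included Efnb2 (-2.82 ± 0.35) and Ephb4 (-2.60 ± 0.48), a ligand and receptor pair of artery and vein, and Aplnr, the apelin receptor, which fell from 4.77, 3.34 and 5.69 CPM to 1 count in all. Flt1 was 7.81 ± 3.77 CPM (SD, n = 3) in mesoderm and 9.75 ± 2.16 CPM in HPCs, and Pecam1 was 2.93, 1.07 and 7.69 CPM in mesoderm and 9.49, 7.89 and 6.67 CPM in HPCs, and neither was called. The summed level of the list was 89.9 to 219 CPM in mesoderm and 39.4 to 51.6 CPM in HPCs. E7.2 mesoderm was lowest for Flt1, Pecam1, Kit, Erg and Meis1.

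Most genes of BMP and TGF-beta signalling fell. Of 34 listed, 30 were tested, 21 were lower and 1 higher, against 19.5% lower and 16.6% higher of all tested genes. The median was -2.36 in P1-CTCF-KO and -2.14 in wild type, and all 21 were also lower in the wild-type step. By role, the receptor gene Acvr2b fell from 16.9, 15.8 and 12.7 CPM to 1.55, 2.81 and 2.50 CPM (log2 -2.68 ± 0.28), the signal carrier Smad1 by 4.25 ± 0.63, and the target Id3 by 4.49 ± 0.74. The ligand Tgfb1, a product of platelets, was the 1 that rose, from 2.36, 2.61 and 2.76 CPM to 21.8, 13.1 and 23.6 CPM. Of 24 Notch genes 10 were tested, 4 lower and 1 higher. Those lower were the receptors Notch1 (-3.38 ± 0.70), Notch2 (-2.86 ± 0.36) and Notch3 (-5.85 ± 0.60) and the target Hes1 (-3.22 ± 0.87). The coactivator Maml3 rose by 1.59 ± 0.41.

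Most matrix and adhesion genes of mesenchyme that were tested fell. Of 26 listed, 21 were tested, 14 were lower and 3 higher, against 19.5% and 16.6% of all tested genes. Lama5, a basement-membrane laminin, fell by 5.52 ± 0.64, Vcan, versican, by 5.17 ± 0.78, and Snai1, a repressor of epithelial genes, had 25, 46 and 23 counts in mesoderm and none in HPCs. The 3 that rose were Itga4 (3.16 ± 0.58) and Itga6 (2.72 ± 0.67), integrin chains of blood cells, and Zeb2 (2.74 ± 0.30), a repressor also at work in blood. Of 24 mesenchyme genes 13 were tested and 5 fell, among them Fbn2 (-5.59 ± 0.75), Fbn1 (-3.04 ± 0.78) and Vim (-3.18 ± 0.76). The smooth-muscle marker Acta2 was 0.257, 0.294 and 0.939 CPM in mesoderm and 0.518, 0.363 and 2.08 CPM in HPCs, overlapping. Of the pluripotency list of 26, 6 were tested and 4 fell (Sall4, Tbx3, Lin28a and Trim71). Lin28a had 200, 334 and 177 counts in mesoderm and 2, 0 and 0 in HPCs. Keratins Krt8 (-2.76 ± 0.96) and Krt18 (-3.76 ± 0.88) were the 2 called of 3 tested among 23 endoderm and ectoderm genes.

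Of 17 genes of CTCF and cohesin, 16 were tested, 3 were higher and 13 were not called, a share near the 16.6% of all tested genes that were higher. Wapl, which releases cohesin from DNA, rose from 9.75, 9.15 and 9.68 CPM to 27.4, 19.1 and 20.7 CPM (log2 1.23 ± 0.20), Hdac8, which recycles cohesin, by 1.56 ± 0.33, and Esco1 by 1.02 ± 0.27, just past the fold limit. Ctcf was 7.19, 6.28 and 7.86 CPM in mesoderm and 5.70, 5.62 and 3.75 CPM in HPCs (adjusted p = 0.084). Replication-dependent histone genes, which make RNA without a poly(A) tail, were called lower in 10 of 58 tested and higher in 0, near the 19.5% of all tested genes that were lower. Their median was -0.63, and in wild type 2 were lower and 0 higher. Without E7.2 mesoderm 19 were lower, and without E7.2 HPCs 5 were lower and 1 higher. H4c4 was at 53.0, 39.0 and 54.4 CPM in mesoderm and 17.6, 17.7 and 18.8 CPM in HPCs. The test of the difference between the steps did not call it (difference -0.81, unadjusted p = 0.049). These genes are near-identical copies, so reads could be split between them.

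Around Runx1, genes were called in both directions. Of 22 genes listed on that stretch of chromosome 16, Runx1 included, 12 were tested, 4 were higher and 4 lower, against 16.6% higher and 19.5% lower of all tested genes. Besides Runx1 the higher ones were Itsn1 at chr16:91729615-91920824 (1.92 ± 0.36), Cryzl1 (1.95 ± 0.31) and Dop1b at chr16:93712151-93810833, which rose from 1.08, 0.771 and 1.35 CPM to 7.25, 5.89 and 3.13 CPM. The lower ones were Slc5a3 (-1.69 ± 0.32) and Mrps6 (-1.53 ± 0.33), which overlap on 1 strand, Chaf1b (-1.43 ± 0.37) and Hlcs (-1.24 ± 0.42). Chaf1b and Hlcs had 20 and 24 counts in all over the P1-CTCF-KO HPC libraries. In the wild-type step 3 of the list were higher and 2 lower. Itsn1 (0.91), Chaf1b (-0.73) and Hlcs (-0.40) were not called there. Clic6 and the Kcne genes were under the filter, Rcan1 was tested and not called, and Son was level at 18.7 to 19.6 CPM in mesoderm and 19.0 to 20.0 CPM in HPCs. None of these genes was called for a difference between the steps (edgeR), where the largest was Itsn1 at 1.01 (unadjusted p = 0.052).

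Open chromatin at the start sites was read from wild-type ATAC-seq peak lists, 1 merged list per stage, with 76766 peaks in mesoderm and 29037 in HPCs. They come from a reporter line of E14-TG2a, with Venus at Runx1 and an enhancer-reporter transgene, and hold no P1-CTCF-KO sample. A peak within 1 kb of the start in mesoderm alone was found for 30.3% of genes lower in P1-CTCF-KO HPCs (Wilson 95% interval 28.1 to 32.6), 20.8% of higher genes (18.7 to 23.0) and 21.2% of all tested. A peak in HPCs alone was rare, at 2.52% of higher (1.81 to 3.50) and 0.883% of lower genes (0.527 to 1.48), against 0.93% of all tested. A peak in neither stage was found for 17.6% of higher, 13.4% of lower and 10.7% of all genes. Rspo3, Mixl1, Bmp5 and Kdr had a peak in mesoderm alone, and Tspan32, Itga2b, Plek and Hbb-y in HPCs alone. Other named genes did not follow this. Of the 12 that rose most clearly, only Tspan32 had a peak in HPCs alone. Ache, Pip5k1b, Smox, Mfsd2b and Tbc1d8 among them had one in mesoderm alone. Of the 12 that fell most clearly, Rspo3, Amot, Luzp1, Prtg and Greb1 had one in mesoderm alone, and Sall4, Tbx3 and Greb1l in both stages. The mesoderm list is the longer, so the shares set the gene groups side by side and not the stages.

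**Figure D5:**
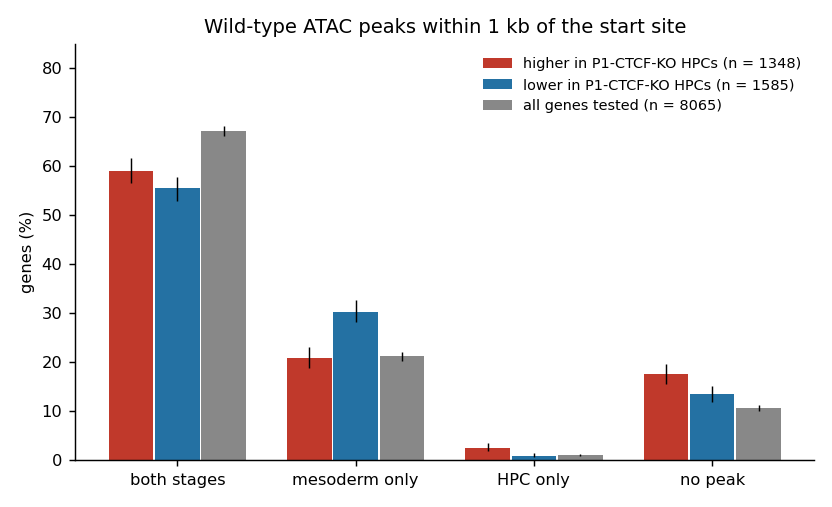
Bars give the percent of genes with a wild-type ATAC peak within 1 kb of the start site in both stages, in mesoderm only, in HPCs only or in neither, for genes higher (n = 1348) and lower (n = 1585) in P1-CTCF-KO HPCs and for all 8065 tested genes with a position, with Wilson 95% intervals. Mesoderm-only peaks stand higher for the lower genes, at 30.3%.

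The Y-linked genes, carried by this male line, varied by clone. Uty was 5.29, 1.32 and 8.62 CPM in E7.1, E7.2 and E9.1 mesoderm and 13.8, 1.72 and 12.7 CPM in HPCs, so E7.2 was lowest at both stages. Of the 3 Y-linked genes tested, 0 were called over the step by edgeR or DESeq2, and 0 had an unadjusted p under 0.05 in edgeR.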

How the data were processed

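RNA without poly(A) tails was sequenced from sorted cells. The authors aligned reads to mm9 with STAR, removed duplicates and counted reads over exons and introns with featureCounts. The deposited values are raw counts per gene, the strand setting and annotation are not given in the sources used here, and antisense partners may share reads. The authors deposited peak lists as start and end positions, and the submitters' processing notes name Bowtie2 and MACS2 without their roles. All positions tested were within mm9 chromosomes except 1 gene end.

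Groups follow the labels. edgeR 4.0.16 (quasi-likelihood, TMM) was fitted to the 13 P1-CTCF-KO and wild-type libraries, with no clone block, after filterByExpr (minimum count 10). Calls required a Benjamini-Hochberg adjusted p under 0.05 and a log2 change of more than 1 in size. CPM were taken over TMM-scaled library sizes. DESeq2 1.42.0, other scalings, filters and sample sets were alternatives, and the script was tested on simulated data. Named genes were the 12 per direction with the smallest adjusted p and stages apart, the 5 per direction for the difference, up to 4 called per list and direction with its defining members, and Runx1 with its neighbours. The members, lists and tests were chosen with earlier results of these data known, and the histone list was rewritten in the table's symbols. The clone names pair the stages by origin, with correlations of same-clone deviations of 0.0284, 0.108 and 0.0429 in P1-CTCF-KO. p-values measure the spread between clones and libraries. Intervals and floors cover counting error only. Results on some genes are not reported here.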

Additional observations from a re-analysis of the deposited data

Results flagged for a closer look

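In the 4 wild-type HPC libraries, 9 of 113 groups of values examined had 1 library far from the other 3 on log2(CPM + 1). For values well above 0, chance alone flags about 1 group in 20. A group with counts in only 1 library is always flagged, so that rate does not apply to Tbx3, Id3, Pdgfra and Twist1. B9.3 was highest for Luzp1 (2.64 CPM), Pdgfra (0.416), Fbn1 (4.3) and Fbn2 (2.08), and its repeat library B9.3-2 for Twist1 (0.214). C6.1 was highest for Tbx3 and Id3 (0.0789 CPM each, 1 count) and lowest for Cbfa2t3 (14.2), and C8.1 was highest for Tal1 (9.63). The P1-CTCF-KO groups of 3 were not examined in this way.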

How the results depend on the processing

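The P1-CTCF-KO step kept its count of calls within 1.5 times under every alternative run. With the clone as a replicate block, which pairs the stages, it called 2844 genes (1325 higher, 1519 lower), the wild-type step 2339 and the difference 0, the shares of calls in common were 71.8% and 87.3%, and Krt8 was the 1 named call lost. The difference between the steps was 0 throughout except for 1 gene with DESeq2 and 2 with no filter on low counts. With each genotype fitted alone, 57% of P1-CTCF-KO calls were also wild-type calls. Leaving out 1 library at a time, the P1-CTCF-KO step called 2722 to 3130 genes (1270 to 1576 higher, 1351 to 1655 lower), the wild-type step 2266 to 2746 and the difference 0, and the shares in common were 63.7 to 75.1% of P1-CTCF-KO calls and 74.4 to 86.7% of wild-type calls, lowest for the latter without E7.2 HPCs. No named gene changed sign, and Hlcs, Krt8, Kitl, Mecom and Pdgfrb lost their call under 2 or more alternatives. The median log2 fold change was -0.137, and -0.049 with RLE size factors, where 50.3% of calls were higher against 46%. Genes lower in the cytokine list numbered 2 and in the mesenchyme list 3, each without E7.1 HPCs or without E7.2 HPCs. Replication histones were lower in 19 without E7.2 mesoderm, in 6 without E7.1 or E9.1 mesoderm and in 5 without E7.2 HPCs. Depth limits genes read at a few counts per library.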
